A study of Homo sapiens with 5 samples.

Results

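KRT7, KRT8, KRT18 and KRT19, the simple epithelial keratins, were followed across 5 RNA-seq libraries of H9, an established human embryonic stem cell line. The members were taken by gene symbol, and all 4 of 4 were among the 26506 genes of the deposited table. The libraries were wild-type (WT) H9 in basal medium, labelled primed, WT in 5iLAF, labelled naive, WT in 2iLAF, the control of the design, labelled primed-naive, B3GALT5-/- cells (KO) in basal medium, labelled primed, and KO in 2iLAF, labelled naive. 5iLAF and 2iLAF are culture media built on kinase inhibitors and growth factors and used to move primed cells towards a naive state. The sources used here do not say whether the KO cells are 1 clone or which part of B3GALT5 was edited. Each group was 1 library, so no difference below has a replicate check, no error between cultures can be given and no p-value is printed. Levels are TPM, a measure of transcript abundance that is scaled for library total and gene length, and so can be set side by side between genes.

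Keratins are intermediate filament proteins that assemble only as pairs of a type II and a type I chain. KRT8 (type II) and KRT18 (type I) form the main pair of simple, single-layered epithelia and are the first keratins of the embryo, KRT19 is a type I keratin that can also partner KRT8, and KRT7 is a type II keratin of ductal, trophoblast and other glandular epithelia. Human pluripotent stem cells grow as an epithelial sheet and carry KRT8 and KRT18. A filament needs chains of both types, so the balance of type II to type I transcripts is given below beside the level of each gene.

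The type I members KRT18 and KRT19 are shown by the best conserved run of 90 bases that lies within 1 exon of both coding sequences, to give what these alternative partners of KRT8 share. Sequences are from the GENCODE 29 transcripts (build GRCh38), 5′ to 3′ on the gene's strand, and capitals mark the 68 positions that are identical in both.
KRT18: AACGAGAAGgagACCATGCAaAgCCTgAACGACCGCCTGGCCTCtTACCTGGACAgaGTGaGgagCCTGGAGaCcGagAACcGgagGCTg
KRT19: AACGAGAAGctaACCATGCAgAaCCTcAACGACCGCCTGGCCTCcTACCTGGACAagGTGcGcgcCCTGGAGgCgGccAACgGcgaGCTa

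This run codes for the conserved motif that begins the central rod of keratins. It lies in exon 1 of 7 of KRT18 (chr12:52949408-52949497, plus strand) and exon 1 of 6 of KRT19 (chr17:41527924-41528013, minus strand). Over their aligned coding sequences the type II members KRT7 and KRT8 were 68.8% identical, the type I members KRT18 and KRT19 58.5%, and pairs of unlike type 44.9% to 48.5%. The KRT19 coding sequence is the shortest, at 1200 bases against 1290 for KRT18, 1407 for KRT7 and 1449 for KRT8.

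The sequences of the 4 genes bear on how far reads can be assigned. KRT8 and KRT18 lie next to each other on chromosome 12, on opposite strands and with 0 protein-coding genes between them, and 24.0% of the bases of the KRT18 transcript lie under an exon of some KRT8 transcript in GENCODE 29. Of all 50-base windows of the KRT18 transcript, 47.6% also occur, on either strand, in a transcript of another gene, against 37.1% for KRT8, 10.8% for KRT7 and 1.79% for KRT19. With windows of 100 bases these shares were 16.6%, 6.73%, 7.67% and 0%. Most of the sharing of KRT8 was with its own processed pseudogenes, of which GENCODE 29 lists 50, beside 67 for KRT18, 5 for KRT19 and 0 for KRT7. No 50-base window of KRT7, KRT8 or KRT19 occurred in another of the 4 members, whereas 326 of the 1513 windows of KRT18 occurred in KRT8 transcripts, where the genes overlap on opposite strands. The table held 3 pseudogene rows of the members (KRT8P41, KRT18P55 and KRT19P2), each listed at 0 in all 5 libraries. The 127 shared 100-base windows of KRT7 were all shared with KRT7-AS, its antisense gene. Whether strand was used in the counting is not given in the sources used here. Part of the KRT18 level could therefore be reads of long KRT8 transcripts and the reverse, and part of the KRT7 level reads of KRT7-AS. This was not tested.

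KRT8, the type II chain of the main pair, stood at 531 TPM in WT basal, 463 in KO basal, 764 in WT 2iLAF, and then 2163 in WT 5iLAF and 2321 in KO 2iLAF. The WT 5iLAF and KO 2iLAF libraries were thus the high ones, at 4.07 and 4.37 times the WT basal level, with WT 2iLAF at 1.44 times. Ranked among genes at or above 1 TPM, KRT8 was number 258 of 13879 in WT basal and number 65 of 14156 in KO 2iLAF. It was the most abundant of the 4 members in the WT 2iLAF, WT 5iLAF and KO 2iLAF libraries.

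KRT18, the type I partner of KRT8, stood at 641 TPM in WT basal, 548 in KO basal, 412 in WT 2iLAF, and then 1219.9 in WT 5iLAF and 1517 in KO 2iLAF. The lowest library was therefore WT 2iLAF, at 0.644 times WT basal, while WT 5iLAF and KO 2iLAF were at 1.90 and 2.37 times. KRT18 was the most abundant member in both basal libraries, where it ranked number 204 (WT) and 246 (KO).

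KRT19, the other type I member, stood at 101 TPM in WT basal, 95.4 in KO basal, 250.4 in WT 2iLAF, and then 232 in WT 5iLAF and 349 in KO 2iLAF. All 3 libraries outside basal medium were above both basal libraries, and WT 2iLAF stood with WT 5iLAF here rather than with the basal libraries. In every library it was below KRT8 and KRT18 and above KRT7.

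KRT7, the other type II member, stood at 9.88 TPM in WT basal, 8.14 in KO basal, 27.0 in WT 2iLAF, and then 5.41 in WT 5iLAF and 4.27 in KO 2iLAF. It was the least abundant member in every library, and its order of libraries was unlike that of KRT8: WT 2iLAF was the highest and the WT 5iLAF and KO 2iLAF libraries the lowest. KRT8 exceeded KRT7 by 53.8 times in WT basal, 28.3 times in WT 2iLAF, 399.8 times in WT 5iLAF and 544 times in KO 2iLAF.

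**Figure D1:**
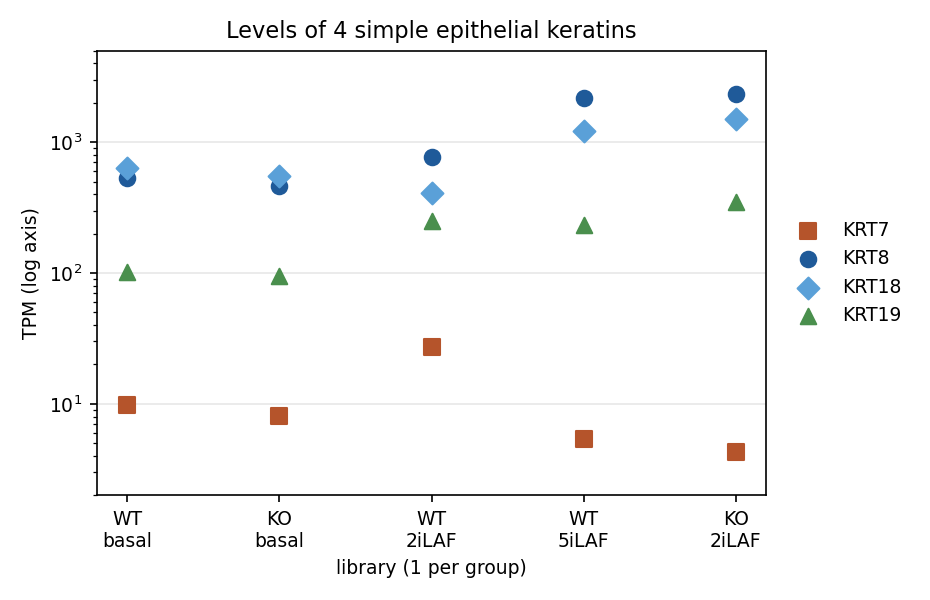
TPM on a log axis for KRT7, KRT8, KRT18 and KRT19 in each of the 5 libraries, 1 point per library with no error bar because each group is 1 library. KRT8 and KRT18 are highest in WT 5iLAF and KO 2iLAF (2163 and 2321 TPM for KRT8), and KRT7 is highest, at 27.0 TPM, in WT 2iLAF.

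Together the 4 members summed to 1283 TPM in WT basal, 1114 in KO basal, 1454 in WT 2iLAF, and then 3620.1 in WT 5iLAF and 4192 in KO 2iLAF. That was between 98.3% and 99.3% of the summed TPM of all keratin genes in each library. In WT 2iLAF the sum was only 1.13 times that of WT basal although its makeup was different. There KRT18 took 28.4% of the 4-member sum against 49.9% in WT basal, KRT19 took 17.2% against 7.88%, KRT8 52.6% against 41.4%, and KRT7 1.86% against 0.770%. In WT 5iLAF and KO 2iLAF, by comparison, KRT19 took 6.40% and 8.33%, close to its share in the basal libraries (7.88% and 8.57%), and KRT8 took 59.8% and 55.4%.

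**Figure D2:**
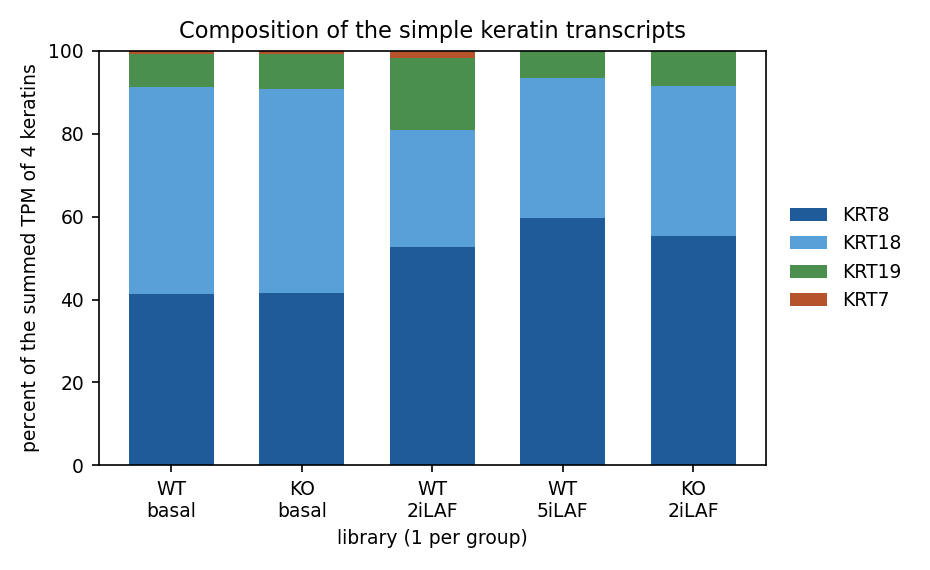
Share of each member in the summed TPM of the 4 keratins, in percent, for each of the 5 libraries (stacked bars, 1 library each). KRT18 is the largest share in both basal libraries and KRT8 in the other 3, and KRT19 takes 17.2% in WT 2iLAF.

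KRT18 exceeded KRT8 in basal medium, and KRT8 exceeded KRT18 in the other media. The ratio of KRT8 to KRT18 was 0.829 for WT and 0.845 for KO in basal medium, 1.85 for WT and 1.53 for KO in 2iLAF, and 1.77 for WT in 5iLAF. All libraries outside basal medium thus had more KRT8 than KRT18 transcript, and both basal libraries had less. With KRT7 and KRT19 counted in, the ratio of type II to type I was 0.730 and 0.732 in basal medium (WT and KO), 1.19 and 1.25 in 2iLAF, and 1.49 in 5iLAF. WT 2iLAF reached its ratio with KRT8 at 764 TPM, WT 5iLAF with KRT8 at 2163 TPM. A ratio within a library does not depend on how libraries are scaled, but it does depend on the assignment of reads between the overlapping genes.

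**Figure D3:**
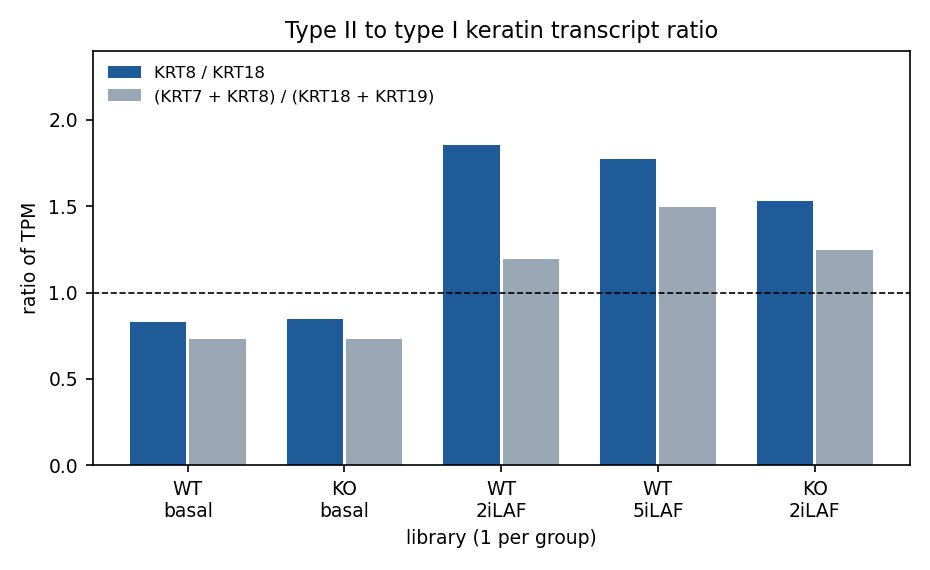
Ratio of TPM of KRT8 to KRT18 (blue bars) and of KRT7 plus KRT8 to KRT18 plus KRT19 (grey bars) in each of the 5 libraries, with a dashed line at 1. Both ratios are below 1 in the 2 basal libraries and above 1 in the other 3.

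Comparisons of libraries were made as log2((TPM + 1)/(TPM + 1)) over the 15761 genes reaching 1 TPM in at least 1 library, and the added 1 shrinks the ratios of low genes such as KRT7. All 4 members passed that filter. Some listed genes passed it only through libraries in which they are then counted as higher. A gene counts below as higher or lower where its level differed by 2-fold or more on that scale. For cells kept in basal medium, the targeted gene B3GALT5 stood at 9.31 TPM in WT and 5.98 in KO. With 2iLAF the levels were 5.13 TPM for WT and 1.17 for KO. Its transcript was thus present in both KO libraries, and lower there than in WT of the same medium. The 5iLAF library, also WT, held only 2.08 TPM, so the transcript differed between media without the edit too. KO basal was above both WT libraries outside basal medium. The part of the edit in the low KO 2iLAF value was not tested. POU5F1, the core pluripotency factor, was between 1099 and 3350.3 TPM in the 5 libraries, whereas KLF17, a naive-specific factor, was at or below 0.12 TPM in all 5, including the 2 labelled naive. Sequencing depth cannot be read from a table of TPM and FPKM.

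In basal medium the 4 keratins differed little between KO and WT. None was counted as higher (background 0.704% of all genes) and none as lower (1.05%). The log2 ratios of KO against WT were -0.25 for KRT7, -0.20 for KRT8, -0.23 for KRT18 and -0.08 for KRT19. All 4 were slightly below 0, as was the median of all genes at -0.06. With 1 library on each side a true difference of this size could not be told from variation between cultures.

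WT cells in 5iLAF had more KRT8 and KRT19 than WT basal. KRT8, at a log2 ratio of 2.02, and KRT19, at 1.19, were the 2 of 4 members counted as higher, against 10.7% of all genes. None was counted as lower, against 11.4%. KRT18, at 0.93, and KRT7, at -0.76, did not pass the size rule, which KRT18 did at 1.02 after median-ratio scaling of the libraries. The median of the 4 was 1.06 beside -0.06 for all genes, and KRT8 ranked number 605 of 15761 from the highest.

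WT cells in 2iLAF differed from WT basal in other members. KRT7, at a log2 ratio of 1.37, and KRT19, at 1.30, were counted as higher, 2 of 4 members against 4.73% of all genes, and none was counted as lower, against 7.02%. KRT8 was at 0.52 and KRT18 at -0.63, so the 2 chains of the main pair lay on opposite sides of 0. The median of all genes here was -0.13. After median-ratio scaling, which brings that median to 0, KRT7 was at 1.54, KRT19 at 1.49, KRT8 at 0.71 and KRT18 at -0.45, and 54.3% of all called genes were higher instead of 40.2%. KRT7 and KRT19 ranked number 428 and 467 of 15761.

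KO cells in 2iLAF were compared with KO basal. KRT8, at a log2 ratio of 2.32, KRT19, at 1.86, and KRT18, at 1.47, were counted as higher, 3 of 4 members against 15.9% of all genes. None was counted as lower, against 11.8%, and KRT7 was at -0.79. This order of members, KRT8 above KRT19 above KRT18 above KRT7, was the same as in WT 5iLAF against WT basal.

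Within 2iLAF the KO library had 3.04 times the KRT8 and 3.68 times the KRT18 of the WT library, and WT had 6.33 times the KRT7 of KO. KRT18, at a log2 ratio of 1.88, and KRT8, at 1.60, were counted as higher, 2 of 4 against 16.6% of all genes. KRT7, at -2.41, was counted as lower, 1 of 4 against 10.8%, and ranked number 280 of 15761 from the lowest. KRT19 was at 0.48. The same medium therefore held different keratin levels in the 2 genotypes, and so did much of the transcriptome. The KO minus WT difference of the change from basal to 2iLAF was 2.10 for KRT18, 1.80 for KRT8, 0.56 for KRT19 and -2.16 for KRT7 on the log2 scale. Over all 15761 genes that difference had a median of 0.19, and 30.1% of genes were at or beyond 1 in size.

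The 2 libraries labelled naive, KO 2iLAF and WT 5iLAF, were near each other. None of the 4 members was counted as higher, against 4.90% of all genes, or lower, against 1.03%. Log2 ratios of KO 2iLAF against WT 5iLAF were 0.10 for KRT8, 0.31 for KRT18, 0.59 for KRT19 and -0.28 for KRT7. Genotype and medium both differ between these libraries and cannot be told apart.

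Between the WT libraries in 5iLAF and 2iLAF, KRT8 and KRT18 were both higher in 5iLAF, by 2.83 and 2.96 times. These were 2 of 4 members, against 12.2% of all genes. KRT7, at a log2 ratio of -2.13, was the 1 member counted as lower, against 9.53%. KRT19 was near level at -0.11. WT 2iLAF is shared with the comparison within 2iLAF, and WT basal with both WT comparisons above, so these values are not independent of one another.

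**Figure D4:**
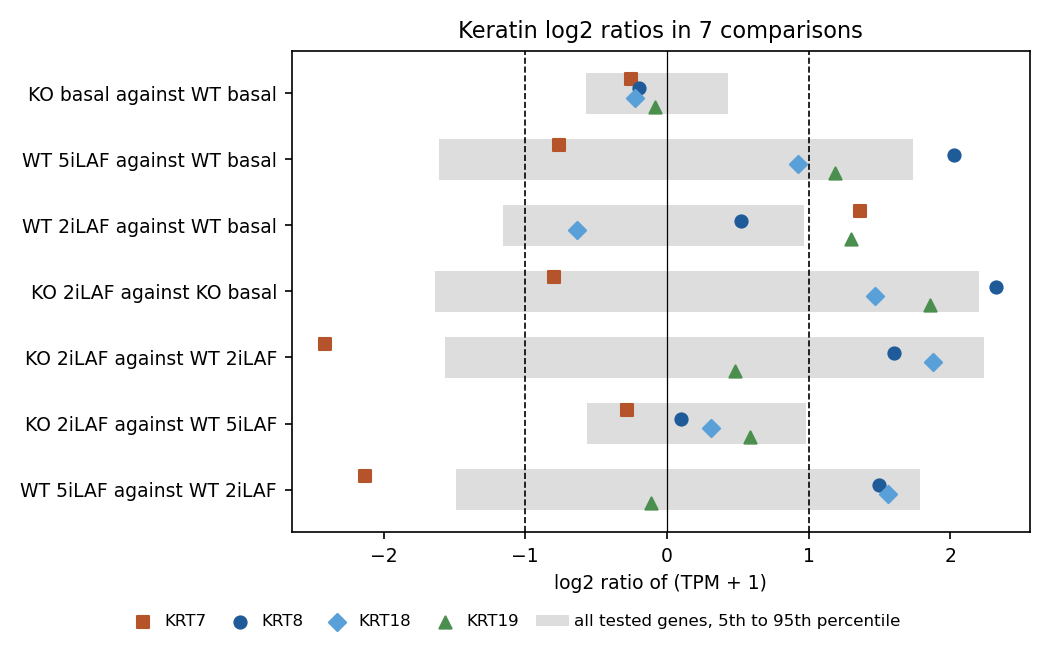
Log2 ratios of TPM + 1 for the 4 keratins (coloured points) in 7 comparisons of 2 libraries, with grey bars from the 5th to the 95th percentile of all 15761 tested genes and dashed lines at -1 and 1. KRT7 lies on the side opposite to KRT8 and KRT18 in the comparisons of KO 2iLAF or WT 5iLAF with WT 2iLAF.

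Other keratins added little. Of 24 other type II keratins 22 stayed below 1 TPM in all 5 libraries, as did 24 of 27 other type I keratins. KRT10, a type I keratin of suprabasal epidermis, stood at 12.5 TPM in WT basal, 10.4 in KO basal, 7.63 in WT 2iLAF, and then 5.06 in WT 5iLAF and 9.85 in KO 2iLAF. KRT17, a type I keratin of basal and stressed epithelia, stood at 0.38, 0.34, 3.04, 6.02 and 6.16 TPM in the same order. KRT5, the type II chain of basal cells of stratified epithelia, was listed at 0 in WT basal and stood at 1.13 TPM in KO basal, 6.71 in WT 2iLAF, and then 4.32 in WT 5iLAF and 2.51 in KO 2iLAF. KRT14, its usual type I partner, stood at no more than 1.33 TPM. KRT81, a hair keratin, was between 2.82 and 6.07 TPM. KRT5 was thus highest in the same library as KRT7, and KRT17 in the same libraries as KRT8.

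Part of the other intermediate filament genes were higher in the libraries labelled naive. Of 13 that passed the filter (of 15 listed), 8 were higher and 1 lower in WT 5iLAF against WT basal, where 10.7% of all genes were higher and 11.4% lower. Their median log2 ratio was 1.34 beside -0.06 for all genes. In KO 2iLAF against KO basal 7 were higher and 0 lower, against 15.9% and 11.8% of all genes, with a median of 1.05 beside 0.02. In WT 2iLAF against WT basal 2 were higher and 1 lower, against 4.73% and 7.02%, with a median of -0.21 beside -0.13. Between the basal libraries the counts were 0 and 0, near the shares of all genes (0.704% and 1.05%). VIM, vimentin, the intermediate filament protein of mesenchymal cells, stood at 32.5 TPM in WT basal, 51.0 in KO basal, 290.7 in WT 2iLAF, and then 2065 in WT 5iLAF and 2354 in KO 2iLAF. The ratio of KRT8 to VIM was thus 16.3 in WT basal, 9.08 in KO basal, 2.63 in WT 2iLAF, and then 1.05 in WT 5iLAF and 0.986 in KO 2iLAF. LMNA, the A-type lamin of the nuclear envelope, stood at 21.03 TPM in WT basal, 151 in WT 5iLAF and 219 in KO 2iLAF. NES, nestin, stood at 103, 409 and 355 TPM in the same 3 libraries, and PRPH, the peripherin of peripheral neurons, at 0.32, 10.7 and 15.2. PRPH passed the filter only through WT 5iLAF and KO 2iLAF, the libraries in which it is counted as higher.

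Desmosomes anchor keratin filaments at cell contacts. Of 14 tested desmosome and linker genes (of 19), 4 were higher and 2 lower in WT 5iLAF against WT basal, where 10.7% and 11.4% of all genes were. In KO 2iLAF against KO basal 7 were higher and 2 lower, against 15.9% and 11.8% of all genes, so the 2 lower genes are near the background in both. PKP1, plakophilin 1, is among the 7 and passed the filter only through KO 2iLAF, at 2.80 TPM. The counts were 0 and 0 in WT 2iLAF against WT basal, against 4.73% and 7.02% of all genes. They were also 0 and 0 in KO basal against WT basal, against 0.704% and 1.05%. Counts of 0 among 14 genes are near these shares. DSG2, a desmosomal cadherin, was at 145 TPM in WT basal, 116 in WT 5iLAF and 113 in KO 2iLAF, and JUP, plakoglobin, at 116, 88.7 and 113. PERP, a desmosomal membrane protein, stood at 32.8, 71.8 and 81.8 TPM in these libraries, and PKP3, plakophilin 3, at 14.7, 2.02 and 3.97. DSP, desmoplakin, which binds keratin filaments, was named after its values were seen and stood at 35.3, 76.7 and 67.4 TPM. DSC3, desmocollin 3, stood at 14.9 TPM in KO 2iLAF and at or below 2.28 TPM in the other 4 libraries.

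Of 8 genes for proteins that bind or chaperone keratins, 2 were higher and 0 lower in WT 5iLAF and in KO 2iLAF, each against basal medium of the same genotype, and 1 and 0 in WT 2iLAF. Among all genes 10.7%, 15.9% and 4.73% were higher in these comparisons, so counts this small are within about 1 gene of the background. HSPB1, a small heat shock protein that associates with keratin filaments, stood at 258 TPM in WT basal, 274 in KO basal, 261 in WT 2iLAF, and then 955 in WT 5iLAF and 1215 in KO 2iLAF. TRADD, a death-receptor adaptor that KRT18 binds, stood at 0.13, 0.26, 1.49, 7.92 and 7.66 TPM in that order. TRADD passed the filter only through libraries outside basal medium, in which it is counted as higher. The 14-3-3 gene YWHAE, whose family binds phosphorylated KRT18, was between 912 and 1098 TPM in all 5 libraries. HSPB1 was therefore high in the same 2 libraries as KRT8 and KRT18, and YWHAE was near level.

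Of 22 epithelial surface and junction genes tested, 13 or 14 were lower in each of the libraries where KRT8 and KRT18 were highest. In WT 5iLAF against WT basal 0 were higher, 13 lower and 9 within the size rule, against 10.7% and 11.4% of all genes higher and lower, with a median of -1.38 beside -0.06 for all genes. In KO 2iLAF against KO basal 0 were higher, 14 lower and 8 within, against 15.9% and 11.8%, with a median of -1.67 beside 0.02. KRT8 was at 2.02 and 2.32 in these comparisons. In WT 2iLAF against WT basal 5 were higher and 0 lower, against 4.73% and 7.02%, with a median of 0.08 beside -0.13. CDH1, E-cadherin, stood at 115 TPM in WT basal, 116 in KO basal, 233 in WT 2iLAF, and then 31.1 in WT 5iLAF and 25.1 in KO 2iLAF. CLDN4, a tight junction claudin, stood at 29.7, 49.2, 111, 1.94 and 2.01 TPM in that order, and EPCAM, an epithelial adhesion molecule, at 302, 265, 297, 118 and 68.0. KRT7 and CLDN4 were thus highest in WT 2iLAF and lowest in the 2 libraries where KRT8 was highest.

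**Figure D5:**
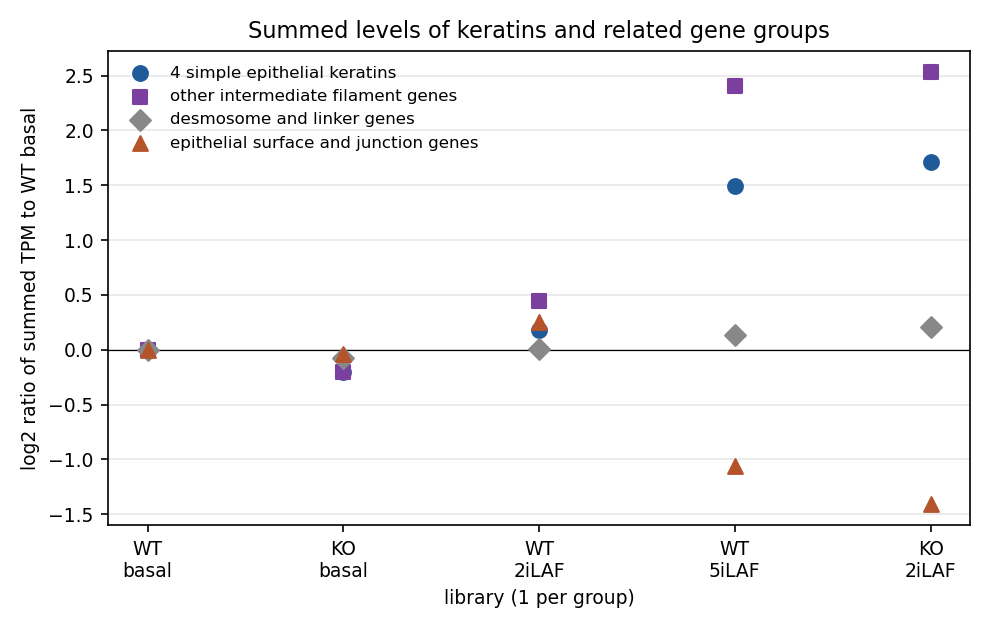
Log2 ratio to WT basal of the summed TPM of the 4 keratins, 15 other intermediate filament genes, 19 desmosome and linker genes and 22 epithelial surface and junction genes, 1 point per library. In WT 5iLAF and KO 2iLAF the keratins and the other intermediate filaments lie above 0 (1.71 and 2.53 in KO 2iLAF) and the epithelial surface genes below it (-1.06 and -1.41). VIM made up 2354 of the 3480 TPM of the other intermediate filaments in KO 2iLAF, against 32.5 of 602 in WT basal.

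Transcription factors of epithelia had separate patterns. GRHL2, grainyhead-like 2, which maintains epithelial identity, stood at 17.7 TPM in WT basal, 15.5 in KO basal, 20.9 in WT 2iLAF, and then 0.09 in WT 5iLAF and 0.18 in KO 2iLAF. TFAP2C, an AP-2 factor of trophoblast and naive cells, stood at 3.72, 6.61, 36.5, 55.2 and 48.5 TPM, and TFAP2A, its paralogue of surface ectoderm, at 0.06, 0.10, 17.3, 3.12 and 2.09. ELF3, an ETS factor of epithelia, stood at 2.76, 2.59, 24.2, 5.83 and 5.23 TPM, and KLF4 at 1.40, 1.36, 20.5, 7.71 and 7.57. TFAP2A, ELF3 and KLF4 shared with KRT7 its highest library, WT 2iLAF. Of the 13 tested factors, 8 were higher and 3 lower in WT 5iLAF against WT basal, where 10.7% and 11.4% of all genes were. GRHL3, TFAP2A, TFAP2B, GATA2 and GATA3 are among those counted as higher. They were at or below 0.34 TPM in both basal libraries and passed the filter only through libraries outside basal medium. All of them but TFAP2B are also counted as higher in WT 2iLAF against WT basal. In WT 2iLAF against WT basal 7 were higher and 0 lower, against 4.73% and 7.02%, and in KO 2iLAF against KO basal 7 and 2, against 15.9% and 11.8%.

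Cell types that carry these keratins were checked by marker lists, given with the summed level over each list. In bulk RNA, fewer cells of a type and less RNA per cell cannot be told apart. Trophoblast markers, 16 of 17 in the table, summed to between 38.8 and 60.8 TPM, with 3 or 4 of them reaching 1 TPM in a library. The placental hormone gene CGA and the trophoblast factor ELF5 were listed at 0 in all 5. SDC1, at 53.0 TPM in WT basal and 15.3 in KO 2iLAF, made up most of the WT basal sum. HLA-G stood at 1.98 TPM in WT basal, 0.07 in KO basal, 12.9 in WT 5iLAF and 8.13 in KO 2iLAF. PAGE4 stood at 18.9 TPM in KO 2iLAF and at or below 1.21 elsewhere. Of 5 tested trophoblast markers, 1 was higher and 2 lower in WT 5iLAF against WT basal (10.7% and 11.4% of all genes). In KO 2iLAF against KO basal 2 were higher and 1 lower (15.9% and 11.8%). Amnion markers summed to 14.01 TPM in WT basal, 15.9 in KO basal, 52.0 in WT 2iLAF, and then 211 in WT 5iLAF and 254 in KO 2iLAF, with 4 to 7 of 10 at or above 1 TPM. TNC, BMP4 and POSTN, at 97.6, 74.5 and 29.1 TPM, made up most of the amnion sum in WT 5iLAF, whereas GABRP stood at 4.65 TPM in WT basal and 0.62 in WT 5iLAF and VTCN1 at or below 0.40 in all 5. Endoderm epithelium markers summed to 11.6, 12.2, 8.94, 2006 and 1037 TPM, with 2 to 11 of 12 at or above 1 TPM, and CER1 alone was 1832 TPM in WT 5iLAF and 852 in KO 2iLAF. Of 11 tested endoderm markers, 9 were higher and 0 lower in WT 5iLAF against WT basal (10.7% and 11.4% of all genes). In KO 2iLAF against KO basal 10 were higher and 0 lower (15.9% and 11.8%). Some, such as GATA4 (0.05 TPM in WT basal, 44.2 in WT 5iLAF and 76.7 in KO 2iLAF), passed the filter only through these 2 libraries. Mesothelium markers summed to between 428 and 821 TPM, with 3 or 4 of 7 at or above 1 TPM. PODXL, which is not specific to mesothelium, made up nearly all of it (467 TPM in WT basal and 809.7 in WT 2iLAF). MSLN was at or below 0.27 TPM in all 5. Of 4 tested mesothelium markers, 2 (CALB2 and LRRN4) were higher and 1 (UPK3B) lower in WT 5iLAF against WT basal (10.7% and 11.4% of all genes). The same genes were called in the same directions in KO 2iLAF against KO basal (15.9% and 11.8%). LRRN4 passed the filter only through WT 5iLAF and KO 2iLAF. The amnion and endoderm sums were high in the same 2 libraries as KRT8 and KRT18. TNC, BMP4 and POSTN carried most of the amnion sum and CER1 most of the endoderm sum there. The part of any of these lists in the keratin levels was not tested.

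Lists for other cell types also differed between the libraries. Fibroblast markers summed to 963 TPM in WT basal, 1028 in KO basal, 427 in WT 2iLAF, and then 2230 in WT 5iLAF and 5944 in KO 2iLAF, and smooth muscle markers to 104, 274, 603, 2661 and 3584. In the basal libraries THY1 (716 and 754 TPM) and FBLN1 (176 and 182) made up most of the fibroblast sum and COL3A1 was at or below 0.30, while in WT 2iLAF THY1 stood at 65.7 and FBLN1 at 223. COL3A1 stood at 258 TPM in WT 5iLAF and 1871 in KO 2iLAF. Granulocyte markers summed to 1097 TPM in KO 2iLAF, with 12 of 12 at or above 1 TPM, and to at most 4.91 TPM in the other 4 libraries. Erythroid markers summed to 235 TPM in WT basal and 225 in KO 2iLAF and to at most 12.9 in the other 3. Neural markers summed to 1366 TPM in WT 2iLAF, 1070 in WT 5iLAF, 914 in KO 2iLAF, 337 in WT basal and 245 in KO basal. TUBB3 and NES, at 603 and 409 TPM, made up most of the WT 5iLAF sum, whereas the neural factors LHX5, FEZF1 and SIX3, at 89.7, 96.6 and 20.1 TPM in WT 2iLAF, were at or below 0.14 in WT 5iLAF and KO 2iLAF. Of these 5 lists, the fibroblast and smooth muscle sums were highest in the 2 libraries with the most KRT8, the neural sum was highest in the library with the most KRT7, and their part in the keratin levels was not tested.

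Genes whose pattern over the 5 libraries lay nearest to each member were sought by the Euclidean distance between profiles of log2(TPM + 1) centred on their mean, among the 10376 genes reaching 10 TPM in at least 1 library. KRT18 had the closest neighbours, ADI1, an enzyme of methionine salvage, at a distance of 0.10, NIN, the centrosomal protein ninein, at 0.13, and PPP1R18 at 0.14. Nearest to KRT8 were ZNF611 at 0.20, MCAM, a cell adhesion molecule, at 0.23, and PDLIM7 at 0.26. Nearest to KRT7 were SALL1, a transcription factor, at 0.24, PLPPR3 at 0.40 and LIN7A at 0.40, and nearest to KRT19 SLC4A8 at 0.30, MAGED1 at 0.31 and PNRC1 at 0.37. The members themselves were farther apart. KRT8 and KRT18 were 1.15 apart, KRT8 and KRT19 1.19, KRT18 and KRT19 1.57, and KRT7 was 2.66 to 3.63 from the other 3. Ordered by distance from KRT8, KRT18 came at place 506 of 10375 genes, and ordered from KRT18, KRT8 came at place 1743. With 5 libraries many genes thus lay nearer to each than its partner did.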

How the data were processed

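Per the labels' protocols, poly(A) RNA was sequenced after TruSeq Stranded library preparation. Trimmomatic 0.39, Bowtie2 2.3.4.1, RSEM 1.2.28 and build hg19 appear in the submitters' processing notes. The annotation, the strand setting and the read length: not given in the sources used here. TPM values as the authors deposited them were used, summing to between 999999 and 1000000 per library, and, per the file headers, FPKM values, and 18 further columns were empty. RSEM estimates the share of reads that fit several genes, so KRT8, KRT18 and their pseudogenes are uncertain where sequences are shared. Counts were not used here, so depth and detection limits are unknown.

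The members, lists and comparisons were chosen with earlier results of these data known. Genes reaching 1 TPM in 1 library were compared as log2 ratios with a pseudocount of 1 TPM, in 7 comparisons of 2 libraries, and called at 2-fold. Genes named were the members, B3GALT5, POU5F1, of each list up to 4 by highest TPM and up to 2 by largest ratio, and the 3 nearest genes of each member. KLF17, CGA, ELF5, MSLN, GABRP, VTCN1, FBLN1, SIX3, DSP, PKP1, KRT16 and its pseudogenes were named after their values were seen. DES, NES, TFAP2A and GATA3 each stand in 2 lists. Alternatives were pseudocounts of 0.1 and 5 TPM, dropping the filter or raising it to 5 TPM, median-ratio and trimmed-mean scaling, FPKM, size rules of 1.5-fold and 4-fold, and adding pseudogene rows. The size rule was tried on simulated 4-fold changes in genes well above the filter. That run did not cover low genes such as KRT7, changes near 2-fold or variation between cultures. Python 3.11.15, numpy 2.4.6, pandas 2.3.3 and matplotlib 3.10.9 were used, and coding sequences were aligned with MAFFT. Coordinates are GRCh38 and come from GENCODE 29, since the table held none. Sequences of KRT7 and KRT8 are not reported here.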

Additional observations from a re-analysis of the deposited data

Results flagged for a closer look

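Members that lay on opposite sides of 0 in the 2 genotypes or in the 2 media are given here, each with 1 library per group. The change from basal medium to 2iLAF was 1.37 (log2) for KRT7 in WT and -0.79 in KO. For KRT18 it was -0.63 in WT and 1.47 in KO. The difference between KO and WT was -0.20 in basal medium and 1.60 in 2iLAF for KRT8, -0.23 and 1.88 for KRT18, and -0.08 and 0.48 for KRT19. These differences were not tested, because each group holds 1 library, and the basal values of KRT8, KRT18 and KRT19 are near 0.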

How the results depend on the processing

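No paired analysis was possible because each group holds 1 library and the results come from no test. No called member changed sign under any alternative run. Pseudocounts of 0.1 and 5 TPM, trimmed-mean scaling and FPKM changed the call of none of the 28 member ratios (4 members in 7 comparisons). Median-ratio scaling changed 1, KRT18 in WT 5iLAF against WT basal. Leaving out the filter or setting it at 5 TPM could change no call. The filter does not enter the ratio, and all 4 members exceed 5 TPM in at least 1 library. The counts moved with the size rule, as its construction makes them. At 4-fold, 1 member was higher in WT 5iLAF against WT basal, beside 615 of all 15761 genes. In WT 2iLAF against WT basal 0 were higher, beside 208 genes, and in KO 2iLAF against KO basal 1, beside 933. In KO 2iLAF against WT 2iLAF and in WT 5iLAF against WT 2iLAF 0 were higher, beside 971 and 639. At 1.5-fold, 1 member was lower in WT 5iLAF against WT basal (KRT7), beside 3478 of all 15761 genes. In WT 2iLAF against WT basal 1 was lower (KRT18), beside 3136, and in KO 2iLAF against KO basal 1 (KRT7), beside 3513. Each of these counts of 1 of 4 is near the share of all genes. In KO 2iLAF against WT 5iLAF 1 was higher (KRT19), beside 1434 genes. KRT18 also passed as higher in WT 5iLAF against WT basal, which made 3 members there, beside 2923 of all genes. The KRT8 to KRT18 and type II to type I ratios moved by under 1% with FPKM or with pseudogene rows added. Neither run could have moved them, since TPM and FPKM are proportional within a library and the pseudogene rows were at 0. The assignment of reads between KRT8 and KRT18 was not checked by these runs. With a pseudocount of 5, 0 of the 3 nearest genes were shared for KRT7, 0 for KRT8, 2 for KRT18 and 1 for KRT19, so those names depend on the pseudocount.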

Other observations

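Pseudogene rows of another type I keratin gave values that single rows cannot settle. KRT16, a keratin of stressed epithelia, was at or below 0.39 TPM in all 5 libraries, while its pseudogene rows KRT16P2 and KRT16P3 stood at 2.95 and 4.71 TPM in WT 5iLAF and at 3.42 and 3.82 in KO 2iLAF, and at no more than 0.15 TPM in the other 3. KRT16P1 stood at 1.14 and 1.68 TPM and KRT17 at 6.02 and 6.16 TPM in the same 2 libraries. The sequences of these genes were not compared here, so the split of reads between these rows is uncertain.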
